A study of Mus musculus with 18 samples.

Results

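Cholesterol handling was compared across 6 groups of sorted colon cells through 37 genes, chosen by gene symbol from the array annotation and sorted here by role. Of these, 35 had a probe set that carried 1 gene symbol, all 35 passed the filter on low values, and they were tested among 14003 genes. Acat2 and Soat1 had no such probe set and were not analysed here. The roles are 18 sterol synthesis enzymes (17 tested), 5 genes of sterol sensing and transport, 6 genes of sterol efflux and the liver X receptor (LXR), 2 genes of lysosomal sterol export, and 6 genes of lipid storage and fatty acid uptake (5 tested). The last 3 roles together hold 13 tested genes, called efflux, export and storage genes below.

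Cells balance sterol made against sterol taken up. When membrane sterol is low, the SREBP transcription factors leave the endoplasmic reticulum with their escort protein and raise the enzymes of the mevalonate and sterol pathway, and when sterol is plentiful its oxidised forms activate LXR, which raises transporters and apolipoproteins that carry cholesterol out of the cell. Phagocytes that engulf dying cells take in much membrane lipid, which leaves the lysosome through the Niemann-Pick proteins and is exported or stored in lipid droplets.

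The cells were MHC+CD11chigh cells of the colon lamina propria of BALB/c mice, 8 weeks old, and the study's title calls them dendritic cell subsets. The sort on CD103 and CD11b gave a CD103+CD11b-, a CD103+CD11b+ and a CD103-CD11b+ subset. Experiments 1 to 3 used untreated mice, and experiments 4 to 6 used colitic mice that had received 2% DSS (dextran sulfate sodium, which damages the gut lining). Each of the 6 groups had 3 arrays, 1 from each experiment of its condition. Neither the number of mice behind an array nor the use of separate animals is stated, so the p-values below cover only the spread among these arrays, which may be technical. No experiment held both conditions, so experiment and DSS cannot be told apart. Values are log2 expression as deposited, and since probes differ in brightness, the level of one gene is not set against that of another.

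The sort genes followed the labels. Itgae, which encodes CD103, read 9.37 ± 0.09 (SD, n = 3) in untreated CD103+CD11b- cells, 8.84 ± 0.14 in CD103+CD11b+ cells and 6.35 ± 0.11 in CD103-CD11b+ cells, where it was 7.44 ± 0.19 in the DSS arrays. Itgam, which encodes CD11b, read 5.14 ± 0.51, 7.31 ± 0.08 and 7.93 ± 0.23 in the untreated groups in the same order. The 6 cDC1 markers, of the dendritic cells that cross-present antigen, summed to 1950 to 1990 on the linear scale in untreated CD103+CD11b- cells and to 408 to 575 in the other untreated groups. All 11 macrophage markers were measured, and they summed to 2710 to 2840 in untreated CD103+CD11b- cells, 3080 to 3770 in CD103+CD11b+ cells and 6530 to 9660 in CD103-CD11b+ cells. The 6 cDC2 markers, of the dendritic cells that carry CD11b, summed to 380 to 447, 2440 to 2600 and 1990 to 2350 in these groups in the same order. The untreated CD103-CD11b+ group thus had high signal of both cDC2 and macrophage markers.

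The promoters of 4 genes are shown as examples of both roles and of the motifs searched, from 250 bases before to 50 bases after the transcription start in RefSeq on build GRCm38.p6, each 5′ to 3′ on the strand of its gene. Capitals mark the motif named beside each gene. Abca1, Pltp and Idi1 were called in several subset comparisons, and Hmgcs1, called in 1, holds the only exact sterol regulatory element among the synthesis windows.
Abca1, chr4:53159846-53160145, minus strand, capitals mark the E-box CACGTG: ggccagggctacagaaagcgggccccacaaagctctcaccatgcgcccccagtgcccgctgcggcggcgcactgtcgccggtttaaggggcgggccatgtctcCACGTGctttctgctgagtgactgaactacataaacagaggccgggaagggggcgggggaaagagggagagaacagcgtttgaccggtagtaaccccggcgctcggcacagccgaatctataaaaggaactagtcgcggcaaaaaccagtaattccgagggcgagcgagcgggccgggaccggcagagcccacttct
Pltp, chr2:164857659-164857958, minus strand, capitals mark CCAAT read on the other strand: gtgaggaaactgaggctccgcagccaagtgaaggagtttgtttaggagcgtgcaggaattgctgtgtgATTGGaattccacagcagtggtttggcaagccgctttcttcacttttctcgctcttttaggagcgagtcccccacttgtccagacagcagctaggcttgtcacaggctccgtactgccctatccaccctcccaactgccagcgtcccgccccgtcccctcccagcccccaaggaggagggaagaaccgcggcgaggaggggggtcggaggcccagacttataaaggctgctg
Idi1, chr13:8885356-8885655, plus strand, capitals mark CCAAT read on the other strand: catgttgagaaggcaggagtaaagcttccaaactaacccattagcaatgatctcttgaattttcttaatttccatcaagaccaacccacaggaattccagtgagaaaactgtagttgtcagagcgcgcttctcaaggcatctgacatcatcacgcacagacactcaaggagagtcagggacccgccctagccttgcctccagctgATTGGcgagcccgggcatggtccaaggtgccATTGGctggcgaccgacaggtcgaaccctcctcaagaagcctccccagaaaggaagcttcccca
Hmgcs1, chr13:119690101-119690400, plus strand, capitals mark the sterol regulatory element and CCAAT read on the other strand: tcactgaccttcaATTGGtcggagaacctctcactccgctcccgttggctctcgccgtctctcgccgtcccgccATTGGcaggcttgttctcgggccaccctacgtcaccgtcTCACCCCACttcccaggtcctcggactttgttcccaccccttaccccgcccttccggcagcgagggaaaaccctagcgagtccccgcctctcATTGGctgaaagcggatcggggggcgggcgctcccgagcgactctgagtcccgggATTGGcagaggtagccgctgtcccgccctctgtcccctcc

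Promoter windows were given for 28 of the 37 genes, Acat2 and Soat1 included, 39 windows in all, and both strands were searched. The sterol regulatory element TCACNCCAC, which SREBP binds, matched exactly in 1 of 15 synthesis genes with a window, Hmgcs1. The match ran from base -137 to -129 with the start counted as 0. By windows, the exact element was in 5.56% of the 18 synthesis windows and 1.24% of all 32851 windows. With up to 1 mismatch the element was in 38.9% of the 18 synthesis windows, 28.6% of the 14 efflux, export and storage windows and 24.2% of all. CCAAT, the letters that the cofactor NF-Y binds, was in 14 of the 15 synthesis genes and 77.8% of their windows, against 50% of efflux, export and storage windows and 37.4% of all. The E-box of Abca1 lay from base -147 to -142, and that motif was in 14.3% of efflux, export and storage windows, 16.7% of synthesis windows and 7.15% of all. A direct repeat of the hexamer AGGTCA with 4 bases between the copies is the form that LXR binds. With up to 2 mismatches it was in 3.02% of all windows and 5.56% of the 18 synthesis windows, in 1 gene, Dhcr7. At that limit it was in 0% of the 14 windows of the 9 efflux, export and storage genes that had one. The limit left out looser repeats, and the Abca1 window shown above holds one on the other strand, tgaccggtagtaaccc. How often such looser repeats occur in all windows was not counted. These matches describe letters in the windows and no overlap between these motifs was removed.

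**Figure D1:**
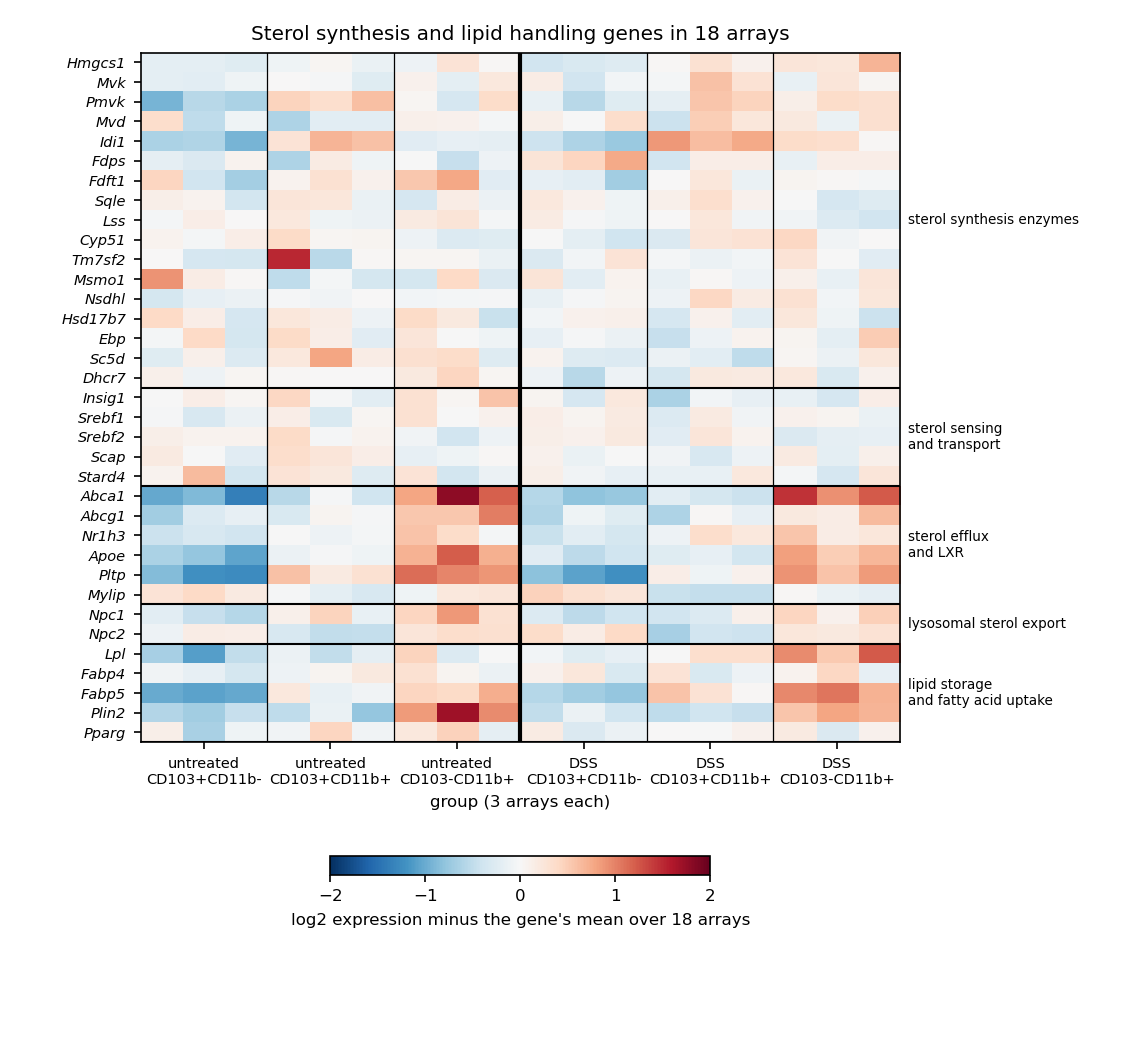
Each row is a gene and each column an array, 3 for each of 6 groups, and the colour is log2 expression minus that gene's mean over the 18 arrays. The strongest colours lie in the efflux and storage rows, blue in CD103+CD11b- and red in CD103-CD11b+ cells in both conditions, while most synthesis rows are pale.

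In untreated mice, CD103+CD11b- cells carried less mRNA for cholesterol efflux and lipid storage than CD103-CD11b+ cells. Of the 13 efflux, export and storage genes, 9 were lower, 0 were higher and the median log2 difference was -0.96. Of the 17 synthesis enzymes 2 were lower, 0 were higher and the median was -0.17, and of the 5 sensing and transport genes none passed the test. In all, 11 of 35 genes were lower and 0 higher at a limma adjusted p under 0.05, while 5.32% of all genes tested were lower, 5.01% were higher and their median was 0.01. In sorted but bulk samples, fewer cells of a type and less RNA per cell cannot be told apart.

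Abca1, the transporter that loads cholesterol and phospholipid onto apolipoprotein A-I, read 6.46, 6.60 and 6.11 in the 3 untreated CD103+CD11b- arrays, 6.92, 7.45 and 7.08 in CD103+CD11b+ arrays and 8.27, 9.27 and 8.67 in CD103-CD11b+ arrays. The 3 groups did not overlap, and the order was CD103+CD11b- below CD103+CD11b+ below CD103-CD11b+. The lowest group lay 5.08-fold below the highest, or -2.35 ± 0.21 on the log2 scale (SE, adjusted p = 2.19e-07).

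Pltp, a secreted protein that moves phospholipid between lipoproteins, read 7.46, 7.10 and 7.07 in untreated CD103+CD11b- arrays, 8.92, 8.51 and 8.64 in CD103+CD11b+ arrays and 9.45, 9.31 and 9.21 in CD103-CD11b+ arrays. These groups stood in the same order as for Abca1, again with no overlap. The difference between the outer groups was -2.11 ± 0.15 (adjusted p = 1.42e-08), or 4.33-fold.

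Apoe, the apolipoprotein that phagocytes secrete to accept exported cholesterol, read 10.57, 10.43 and 10.15 in untreated CD103+CD11b- arrays, 11.09, 11.18 and 11.12 in CD103+CD11b+ arrays and 11.90, 12.42 and 11.92 in CD103-CD11b+ arrays. Every array of a group lay apart from the arrays of the other groups. CD103+CD11b- cells were 3.24-fold below CD103-CD11b+ cells (log2 difference -1.70 ± 0.15, adjusted p = 2.23e-07).

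Abcg1, which passes cholesterol to high-density lipoprotein, was lower in the CD103+CD11b- subset by a log2 difference of -1.08 ± 0.20 (adjusted p = 0.00114), with values of 5.11, 5.52 and 5.64 against 6.34, 6.34 and 6.82 in CD103-CD11b+ arrays. Nr1h3, which encodes the LXR alpha receptor itself, read 4.09, 4.19 and 4.13 against 5.09, 4.88 and 4.48, a difference of -0.68 ± 0.16 (adjusted p = 0.00678). For both genes all 3 CD103+CD11b- arrays lay below all 3 CD103-CD11b+ arrays. Mylip, an LXR-induced ubiquitin ligase that lowers lipoprotein receptors, did not pass the test here (0.16 ± 0.13).

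Npc1, the lysosomal membrane protein that hands cholesterol out of the lysosome, read 6.76, 6.52 and 6.40 in untreated CD103+CD11b- arrays and 7.40, 7.85 and 7.29 in CD103-CD11b+ arrays. The groups did not overlap and differed by -0.96 ± 0.18 (adjusted p = 0.0014). Its soluble partner Npc2 did not pass the test between these groups (-0.25 ± 0.12).

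Plin2, the coat protein of lipid droplets, read 6.57, 6.47 and 6.70 in untreated CD103+CD11b- arrays, 6.66, 7.02 and 6.39 in CD103+CD11b+ arrays and 8.01, 8.86 and 8.10 in CD103-CD11b+ arrays. Both CD103+ groups overlapped each other and lay wholly below the CD103-CD11b+ arrays. The log2 difference of CD103+CD11b- from CD103-CD11b+ cells was -1.74 ± 0.19 (adjusted p = 2.63e-06), a 3.35-fold difference.

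Fabp5, a cytosolic fatty acid carrier, read 5.87, 5.8 and 5.85 in untreated CD103+CD11b- arrays, 7.08, 6.72 and 6.80 in CD103+CD11b+ arrays and 7.31, 7.26 and 7.60 in CD103-CD11b+ arrays. Its 3 lowest arrays were the CD103+CD11b- ones, 2.93-fold below the CD103-CD11b+ mean (log2 difference -1.55 ± 0.15, adjusted p = 7.24e-07). A second Fabp5 probe set of lower mean gave -0.86 ± 0.30 and lost the call (adjusted p = 0.09). The number of the set used lies between those of Mvd on chromosome 8 and Scap on chromosome 9, while Fabp5 lies on chromosome 3. That of the second set lies next to Pmvk on chromosome 3. Which locus the set used reads was not tested. Lpl, the lipase that frees fatty acids from lipoproteins, was lower by -0.81 ± 0.20 (adjusted p = 0.0121), while Fabp4, another fatty acid carrier, and Pparg, a nuclear receptor for fatty acids that favours lipid storage, did not pass the test (-0.28 ± 0.18 and -0.37 ± 0.21).

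Lower in the CD103+CD11b- subset were also 2 synthesis enzymes near the start of the pathway. Idi1, which isomerises the isoprene unit, differed by -0.53 ± 0.14 (adjusted p = 0.02) and Pmvk, which phosphorylates mevalonate phosphate, by -0.73 ± 0.19 (adjusted p = 0.0196). Leaving out 1 of the 6 arrays ended the call in 3 of 6 fits for Idi1, 3 for Pmvk and 2 for Lpl, and over all alternatives the adjusted p reached 0.228, 0.11 and 0.0832. The largest of these p-values for Idi1 came from its second probe set, which gave -0.80 ± 0.37.

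**Figure D2:**
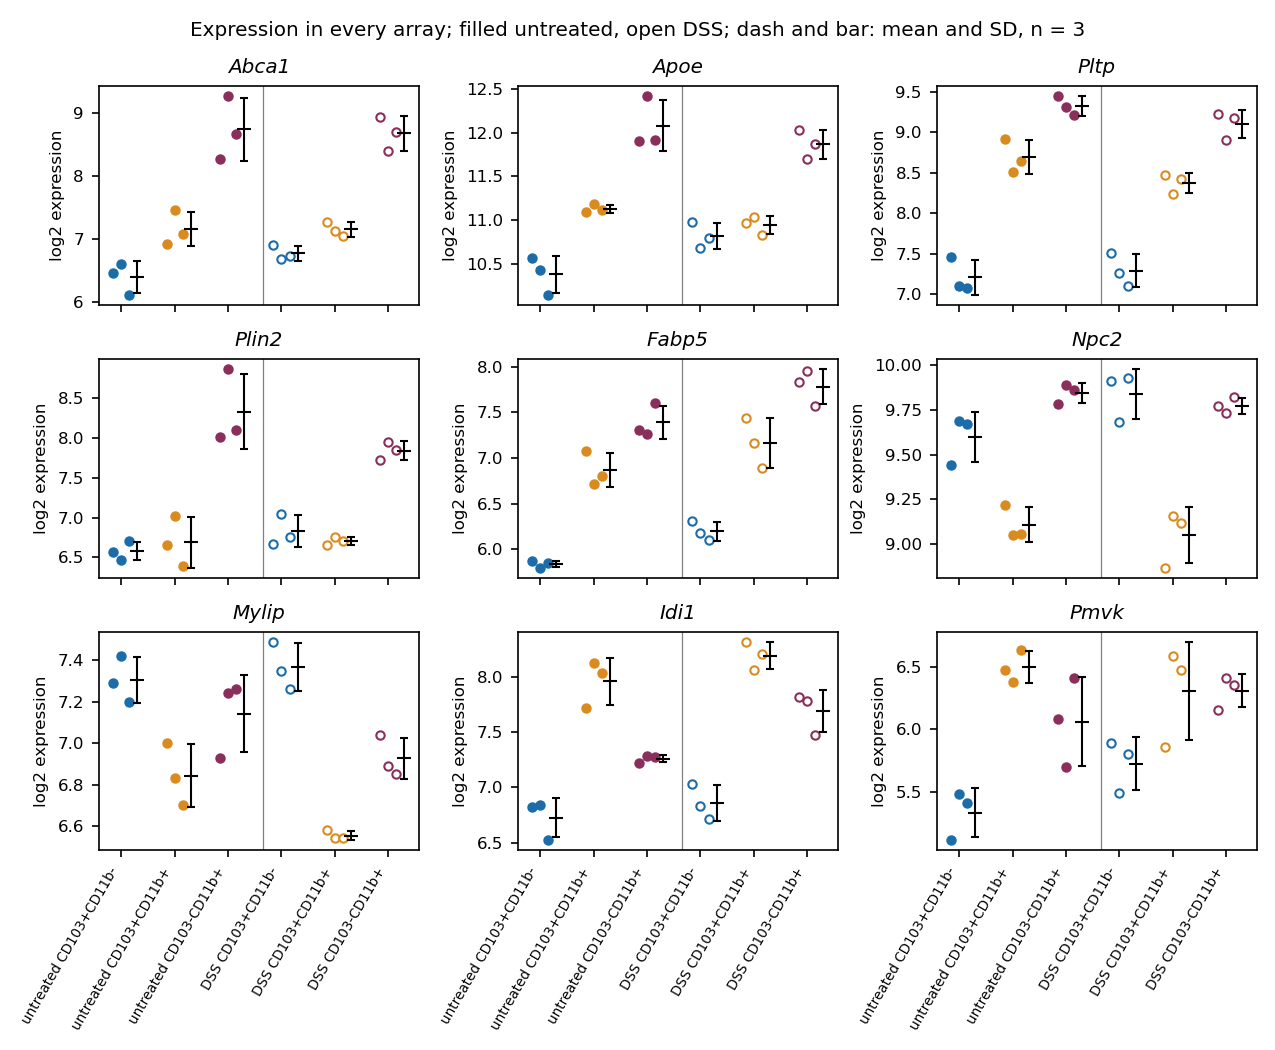
Each panel is a gene, each point an array and the vertical axis log2 expression, with filled points for untreated and open points for DSS arrays; dash and bar give the mean and SD of 3 arrays. Abca1, Apoe and Pltp step up from CD103+CD11b- to CD103-CD11b+, Plin2 is high in CD103-CD11b+ alone, Npc2 and Mylip have their lowest means in CD103+CD11b+, and Idi1 its highest.

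In untreated CD103+CD11b+ cells the means of Abca1, Abcg1, Apoe, Pltp and Nr1h3 lay between those of the other subsets, Mylip and Npc2 had their lowest means and Idi1 its highest. Against CD103-CD11b+ cells, 6 of 35 genes were lower and 1 was higher, while 1.75% and 2.36% of all genes tested were lower and higher. The count of 1 higher gene is near the background. All 6 that were lower belong to efflux, export and storage: Plin2 (-1.63 ± 0.19, adjusted p = 7.7e-05), Abca1 (-1.59 ± 0.21, adjusted p = 0.000244), Apoe (-0.95 ± 0.15, adjusted p = 0.00117), Abcg1 (-0.79 ± 0.20, adjusted p = 0.0311), Npc2 (-0.74 ± 0.12, adjusted p = 0.00152) and Pltp (-0.64 ± 0.15, adjusted p = 0.0214). The 1 that was higher was Idi1. Fitting these 2 groups alone ended the calls of Abcg1, Pltp and Idi1, and leaving out 1 array ended those of Abcg1 in 5 of 6 fits and Pltp in 4. With the experiment number as a block, Fabp5 passed too (-0.52, adjusted p = 0.0378), while its second probe set gave -0.29 ± 0.30 without the block (adjusted p = 0.697).

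Idi1 read 7.72, 8.12 and 8.03 in untreated CD103+CD11b+ arrays, 7.22, 7.28 and 7.27 in CD103-CD11b+ arrays and 6.82, 6.84 and 6.52 in CD103+CD11b- arrays. No group overlapped another, and CD103+CD11b+ cells were highest. They exceeded CD103-CD11b+ cells by 0.70 ± 0.14 (adjusted p = 0.00831) and CD103+CD11b- cells 2.35-fold (adjusted p = 9.17e-06). The second Idi1 probe set went the same way without passing the test. It gave 0.26 ± 0.37 for CD103+CD11b+ minus CD103-CD11b+ cells (adjusted p = 0.794) and -1.05 ± 0.37 for CD103+CD11b- minus CD103+CD11b+ cells (adjusted p = 0.102). The number of the set used lies between those of Tm7sf2 on chromosome 19 and Nr1h3 on chromosome 2, while Idi1 lies on chromosome 13. That of the second set lies next to Mylip on chromosome 13. Which locus the set used reads was not tested. Idi2, a close paralog of Idi1, read 3.86 ± 0.63 in untreated CD103+CD11b+ arrays, and its means in the 5 other groups, 2.38 to 3.02, were under the filter level of 3.51, so the gene passed the filter through that subset and no size of difference is given. Whether probes of the pair share signal was not tested.

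Against untreated CD103+CD11b+ cells, CD103+CD11b- cells had 6 of 35 genes lower and 2 higher, where 4.09% and 2.76% of all genes tested were lower and higher. The lower genes were Pltp (-1.48 ± 0.15, adjusted p = 2.14e-06), Idi1, Pmvk, Fabp5, Abca1 and Apoe. Pmvk read 5.11, 5.48 and 5.41 in CD103+CD11b- arrays and 6.48, 6.38 and 6.64 in CD103+CD11b+ arrays, a difference of -1.17 ± 0.19 (adjusted p = 0.000479). Those groups did not overlap. Fabp5 differed by -1.03 ± 0.15 (adjusted p = 0.000146), but by -0.56 ± 0.30 in its second probe set (adjusted p = 0.34).

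The 2 genes higher in CD103+CD11b- cells were Npc2 and Mylip. Npc2 read 9.44, 9.69 and 9.67 in CD103+CD11b- arrays, 9.22, 9.05 and 9.06 in CD103+CD11b+ arrays and 9.78, 9.89 and 9.86 in CD103-CD11b+ arrays, so that CD103+CD11b+ cells were lowest with no overlap. Mylip read 7.29, 7.42 and 7.20 in CD103+CD11b- arrays, 7.0, 6.83 and 6.70 in CD103+CD11b+ arrays and 6.93, 7.24 and 7.26 in CD103-CD11b+ arrays. The CD103+CD11b- arrays exceeded the CD103+CD11b+ arrays for both genes, by 0.49 ± 0.12 for Npc2 (adjusted p = 0.0164) and 0.46 ± 0.13 for Mylip (adjusted p = 0.0314). Leaving out 1 array ended the calls of Npc2, Mylip and Abca1 in 4 of 6 fits each (adjusted p up to 0.089, 0.122 and 0.169 over all alternatives), and the count of 8 became 5 without replicate 2 of CD103+CD11b+ cells. With the experiment number as a block, Npc1 (-0.56, adjusted p = 0.0341) and Sc5d (-0.53, adjusted p = 0.042) passed too.

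In DSS mice the same pair of outer subsets differed in largely the same genes. CD103+CD11b- cells were lower than CD103-CD11b+ cells in 10 of 35 genes and higher in 1, beside 4.34% and 4.19% of all genes tested. The count of 1 higher gene is near the background. Of the efflux, export and storage genes 8 of 13 were lower and 1, Mylip, was higher, and their median log2 difference was -0.72. The 11 calls shared 9 genes with the 11 calls in untreated cells, 81.8% of each list, all in the same direction: Abca1, Apoe, Fabp5, Idi1, Lpl, Npc1, Nr1h3, Plin2 and Pltp. The log2 differences of the untreated and DSS comparisons come from separate arrays. Their tests, though, share the estimate of each gene's spread, which was fitted over all arrays of both conditions. The shared calls are therefore not from independent tests. Across the 35 genes, which are not independent, the log2 differences of the untreated and DSS comparisons correlated at r = 0.90, given as a description. Neither the shared part nor the correlation was computed over all genes tested, so whether they are particular to these genes was not tested.

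Abca1 read 6.90, 6.68 and 6.72 in DSS CD103+CD11b- arrays, 7.27, 7.12 and 7.05 in CD103+CD11b+ arrays and 8.93, 8.39 and 8.70 in CD103-CD11b+ arrays. As in untreated mice the groups did not overlap, and the outer groups differed by -1.91 ± 0.21 (adjusted p = 3.92e-06). Pltp read 7.51, 7.26 and 7.10, then 8.47, 8.24 and 8.42, then 9.23, 8.90 and 9.18 in the same order of groups, an outer difference of -1.81 ± 0.15 (adjusted p = 1.84e-07). Plin2 read 6.67, 7.05 and 6.76 in CD103+CD11b- arrays, 6.66, 6.76 and 6.70 in CD103+CD11b+ arrays and 7.72, 7.95 and 7.84 in CD103-CD11b+ arrays. So Plin2 again split the CD103-CD11b+ arrays from both CD103+ groups, by -1.01 ± 0.19 from CD103+CD11b- cells (adjusted p = 0.00149). Apoe read 10.98, 10.68 and 10.80 in DSS CD103+CD11b- arrays, 10.97, 11.04 and 10.83 in CD103+CD11b+ arrays and 12.03, 11.70 and 11.87 in CD103-CD11b+ arrays. Here the CD103+ groups overlapped, unlike in untreated mice, and CD103+CD11b- lay -1.05 ± 0.15 from CD103-CD11b+ cells (adjusted p = 9.03e-05).

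Fabp5 (-1.59 ± 0.15, adjusted p = 7.7e-07), Lpl (-1.06 ± 0.20, adjusted p = 0.00152), Npc1 (-0.72 ± 0.18, adjusted p = 0.0152) and Nr1h3 (-0.65 ± 0.16, adjusted p = 0.0109) completed the lower efflux, export and storage genes in DSS CD103+CD11b- cells. The second Fabp5 probe set also passed here (-1.17 ± 0.30, adjusted p = 0.0176). The 2 synthesis enzymes that were lower were Idi1 (-0.84 ± 0.14, adjusted p = 0.000544) and Hmgcs1 (-0.69 ± 0.14, adjusted p = 0.00251). Hmgcs1, which condenses acetyl units at the start of the pathway and carries the sterol regulatory element shown above, read 6.29, 6.37 and 6.42 in CD103+CD11b- arrays, 6.70, 6.97 and 6.75 in CD103+CD11b+ arrays and 6.91, 6.89 and 7.35 in CD103-CD11b+ arrays. All CD103+CD11b- arrays lay below the rest, as they did in untreated mice (6.43 to 6.48 against 6.54 to 6.94), where the difference from CD103-CD11b+ cells did not pass the test (-0.28 ± 0.14, adjusted p = 0.283). The Idi1 call was lost in its second probe set (adjusted p = 0.15), and leaving out 1 array ended those of Mylip in 4 of 6 fits, Npc1 in 3 and Nr1h3 in 2. Abcg1 (-0.63, adjusted p = 0.0624) passed with the experiment number as a block (adjusted p = 0.0143). Pmvk passed when only these 2 groups were fitted (-0.59, adjusted p = 0.0355).

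**Figure D3:**
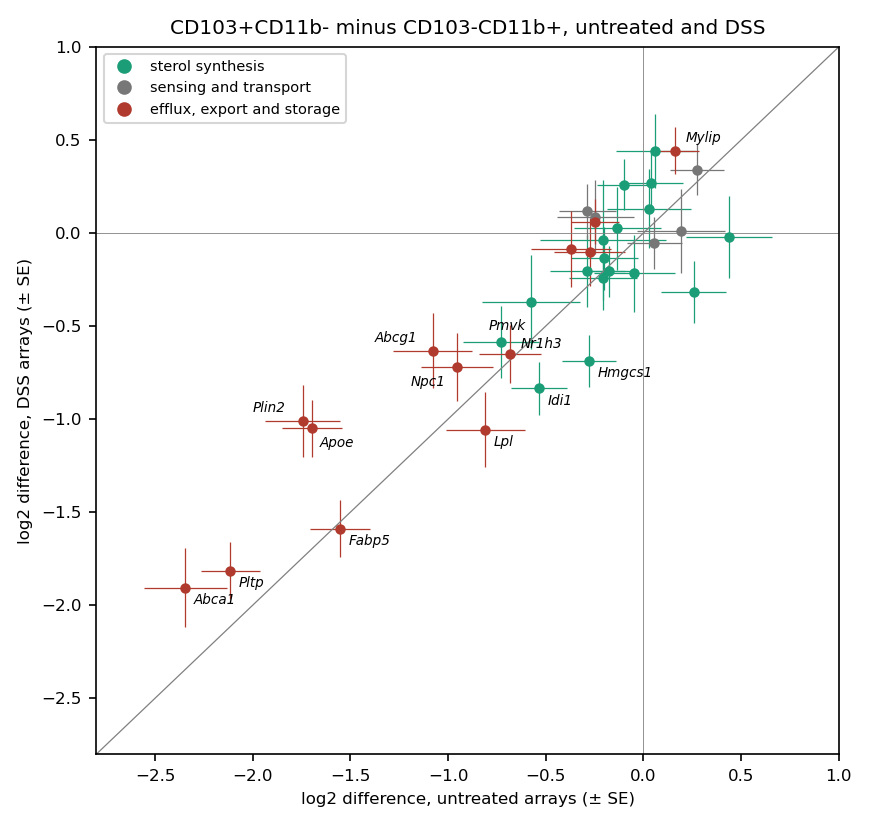
Each point is a gene, with its log2 difference of CD103+CD11b- minus CD103-CD11b+ cells in untreated arrays on the horizontal axis and in DSS arrays on the vertical axis, bars giving SE and the diagonal marking equality. Genes called in either condition are named; red efflux, export and storage genes run down to Abca1 at -2.35 and -1.91, and most green synthesis genes gather near 0.

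Between the CD103+ subsets in DSS mice, CD103+CD11b- cells were lower than CD103+CD11b+ cells in 3 of 35 genes and higher in 2, beside 2.39% and 3.56% of all genes tested. Idi1 was lower by -1.33 ± 0.14 (adjusted p = 5.51e-06), Pltp by -1.09 ± 0.15 (adjusted p = 9.55e-05) and Fabp5 by -0.97 ± 0.15 (adjusted p = 0.000346). Idi1 read 7.03, 6.83 and 6.71 in CD103+CD11b- arrays, 8.31, 8.06 and 8.20 in CD103+CD11b+ arrays and 7.82, 7.78 and 7.47 in CD103-CD11b+ arrays, with no overlap. Here its second probe set also passed (-1.47 ± 0.37, adjusted p = 0.0175). Mylip (0.81 ± 0.13, adjusted p = 0.000264) and Npc2 (0.79 ± 0.12, adjusted p = 0.000274) were higher. Mylip was tightest in DSS CD103+CD11b+ arrays, at 6.58, 6.54 and 6.54, below the 7.49, 7.35 and 7.26 of CD103+CD11b- arrays, and Npc2 read 8.87, 9.16 and 9.12 against 9.91, 9.68 and 9.93. All 5 genes were also called in untreated cells, in the same direction, and made up 62.5% of the 8 called there. Without replicate 4 of DSS CD103+CD11b+ cells, Pmvk (-0.81, adjusted p = 0.0162) and Nr1h3 (-0.62, adjusted p = 0.0434) passed too. Hmgcs1 passed after repeated quantile normalization (-0.48, adjusted p = 0.035).

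DSS CD103+CD11b+ cells were lower than CD103-CD11b+ cells in 6 of 35 genes and higher in 0, beside 1.14% and 0.436% of all genes tested. The 6 were Abca1 (-1.53 ± 0.21, adjusted p = 0.000523), Plin2 (-1.13 ± 0.19, adjusted p = 0.00336), Apoe (-0.92 ± 0.15, adjusted p = 0.00273), Pltp (-0.73 ± 0.15, adjusted p = 0.0171), Npc2 (-0.73 ± 0.12, adjusted p = 0.00318) and Fabp5 (-0.62 ± 0.15, adjusted p = 0.0467). Fabp5 lost its call in 10 alternatives and differed by -0.02 ± 0.30 in its second probe set (adjusted p = 0.999), and Pltp lost its call in 4 of 6 fits without 1 array (adjusted p up to 0.0938). Lpl (-0.69, adjusted p = 0.113) passed with the experiment number as a block (adjusted p = 0.0379). The first 5 of these genes were among the 7 called in untreated cells (71.4% of that list and 83.3% of this one).

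Most of the remaining synthesis genes showed small differences between subsets. The enzymes Mvk, Mvd, Fdps, Fdft1, Sqle, Lss, Cyp51, Tm7sf2, Msmo1, Nsdhl, Hsd17b7, Ebp, Sc5d and Dhcr7, which take mevalonate through squalene and lanosterol to cholesterol, passed no comparison with all 18 arrays, the values as deposited and no block. Fdft1, squalene synthase, differed by -0.58 ± 0.25 between the untreated outer subsets (adjusted p = 0.194) and passed without replicate 1 of CD103+CD11b- cells (-0.90, adjusted p = 0.0202) or replicate 3 of CD103-CD11b+ cells (-0.87, adjusted p = 0.0282), while its second probe set gave -0.09 ± 0.23. Msmo1, a sterol demethylase, passed between the untreated CD103+ subsets after repeated quantile normalization (0.71, adjusted p = 0.048). Squalene epoxidase, Sqle, had group means from 6.27 to 6.64, and Cyp51, the lanosterol demethylase, from 6.21 to 6.57. Tm7sf2, a sterol reductase, read 6.15 in replicate 1 of untreated CD103+CD11b+ cells and 4.10 to 4.92 in the 17 other arrays. The sensing and transport genes Insig1, which holds SREBP back in the endoplasmic reticulum, Srebf1 and Srebf2, which encode the SREBP factors, Scap, their escort, and Stard4, a soluble cholesterol carrier, passed none either. Srebf2 had group means between 8.29 and 8.64.

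The mean deviation over the 17 synthesis genes, each gene centred on its mean over the 18 arrays, was -0.14 ± 0.11 (SD, n = 3) in untreated CD103+CD11b- cells, 0.08 ± 0.07 in CD103+CD11b+ cells and 0.02 ± 0.10 in CD103-CD11b+ cells. For the 13 efflux, export and storage genes it was -0.51 ± 0.05, -0.10 ± 0.06 and 0.54 ± 0.11 in the same order. In DSS arrays the synthesis means were -0.10 ± 0.06, 0.07 ± 0.17 and 0.06 ± 0.08, and the efflux, export and storage means were -0.29 ± 0.06, -0.14 ± 0.03 and 0.49 ± 0.10. Synthesis minus efflux, export and storage was -0.58 to -0.40 in the 6 CD103-CD11b+ arrays and 0.06 to 0.43 in the 12 CD103+ arrays, so these sets of arrays did not overlap. This is a description over genes chosen with earlier results in view, with no test.

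**Figure D4:**
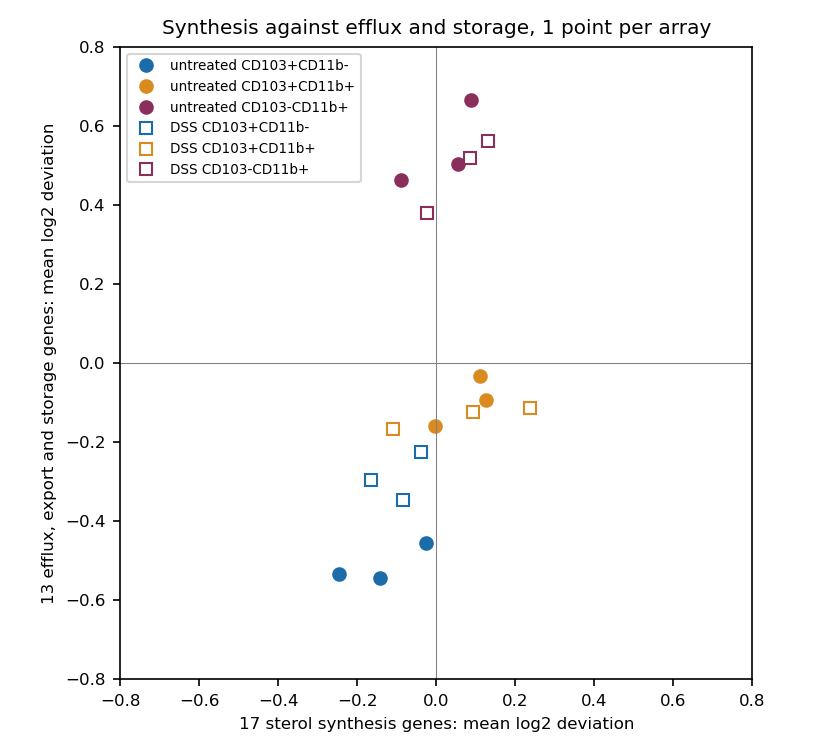
Each point is an array, with the mean log2 deviation of 17 synthesis genes on the horizontal axis and of 13 efflux, export and storage genes on the vertical axis. The 6 CD103-CD11b+ arrays sit at 0.38 to 0.67 on the vertical axis and every CD103+ array lies below 0, while the horizontal values span -0.25 to 0.24 and overlap between subsets.

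Macrophage and cDC2 markers moved with these differences. In untreated mice 9 of the 11 macrophage markers were lower in the CD103+CD11b- subset relative to CD103-CD11b+ cells, 8 were lower in CD103+CD11b+ relative to CD103-CD11b+ cells, and 6 were lower in CD103+CD11b- relative to CD103+CD11b+ cells. In DSS cells these counts were 8, 7 and 2, and the summed marker levels were 3210 to 3390 in CD103+CD11b- arrays, 3450 to 3590 in CD103+CD11b+ arrays and 6790 to 7590 in CD103-CD11b+ arrays. Their order was thus the order of Abca1, Apoe and Pltp. All 6 cDC2 markers were lower in CD103+CD11b- cells relative to either CD11b+ subset in both conditions, and their sums in DSS arrays were 463 to 490 in CD103+CD11b-, 1820 to 1840 in CD103+CD11b+ and 1980 to 2520 in CD103-CD11b+ arrays. In untreated arrays the cDC2 sums had the order of the Idi1 and Pmvk means. All 9 endothelial markers were measured, with sums of 164 to 198 in untreated CD103+CD11b- arrays, 276 to 318 in CD103+CD11b+ arrays and 292 to 317 in CD103-CD11b+ arrays. Of the 7 tested, only 1 was lower in untreated CD103+CD11b- cells relative to either CD11b+ subset. The median log2 difference was -0.20 from CD103-CD11b+ and -0.13 from CD103+CD11b+ cells. The part of macrophages, cDC2 and endothelial cells in the results was not tested. Of 7 adipocyte markers 6 were measured. Adipoq, Lep and Car3 were at or under the filter level of 3.51 in all 18 arrays, while the 3 others measured passed the filter. The adipocyte sums of 51.7 to 72 overlapped between subsets except in DSS arrays. There, CD103+CD11b+ (58.8 to 61.5) lay below CD103-CD11b+ (62.4 to 72). Epithelial marker sums, from 4020 to 7600 over all arrays, also overlapped or met between subsets. Within every experiment, though, the CD103+CD11b- sum lay below the CD103+CD11b+ sum. In experiments 1 to 6 they were 6220, 5870, 4790, 5100, 4020 and 4230 against 7360, 7600, 5480, 5540, 5100 and 5280. Of the 11 epithelial markers 0 were called between these subsets in either condition, and the part of epithelial cells was not tested.

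DSS against untreated cells gave no called gene among the 35 in any subset. In CD103+CD11b- cells 0.107% and 0.0214% of all genes tested were higher and lower, in CD103+CD11b+ cells 0.05% and 0.0357%, and in CD103-CD11b+ cells 0.0714% and 0.0286%. Over all subsets, on the mean of each experiment, the shares were 0.15% and 0.0357%. At an unadjusted limma p under 0.05 there were 4, 5, 7 and 6 of the 35 genes in these 4 comparisons, and 6.08%, 10.1%, 7.67% and 10.5% of all genes. Neutrophil marker sums moved with the condition, at 146 to 370 in untreated arrays and 305 to 959 in DSS arrays with all 6 markers measured. The 11 epithelial markers had median log2 differences of -0.40 in CD103+CD11b-, -0.47 in CD103+CD11b+ and -0.25 in CD103-CD11b+ cells, with 0 called. The part of neutrophils and epithelial cells in the values below was not tested.

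Lpl came nearest to a call. It read 5.02, 4.59 and 5.20 in untreated and 5.64, 5.45 and 5.52 in DSS CD103+CD11b- arrays, 5.57, 5.20 and 5.51 against 5.69, 6.02 and 6.02 in CD103+CD11b+ arrays, and 6.13, 5.42 and 5.69 against 6.64, 6.22 and 6.92 in CD103-CD11b+ arrays. In each subset all 3 DSS arrays lay above all 3 untreated arrays. The log2 differences were 0.60 ± 0.20, 0.48 ± 0.20 and 0.85 ± 0.20 (adjusted p = 0.621, 0.431 and 0.141), and over all subsets the difference was 0.64 ± 0.13 (adjusted p = 0.135). Without replicate 1 of untreated CD103-CD11b+ cells, the difference in that subset was 1.04 and passed (adjusted p = 0.0482).

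Other values between DSS and untreated cells were smaller or less regular. Fdps, which makes farnesyl pyrophosphate, read 6.06, 5.95 and 6.31 in untreated and 6.5, 6.66 and 7.0 in DSS CD103+CD11b- arrays, without overlap (0.61 ± 0.20, adjusted p = 0.616). Sc5d, a late desaturase of the pathway, read 6.73, 7.30 and 6.67 in untreated and 6.40, 6.31 and 6.01 in DSS CD103+CD11b+ arrays, again without overlap (-0.66 ± 0.19, adjusted p = 0.263). In CD103+CD11b- cells all 13 efflux, export and storage genes had a positive difference, with a median of 0.20, where 7613 of all 14003 genes did. The same count was 4 of 13 in CD103+CD11b+ cells, where 5346 of all 14003 genes had a positive difference. In CD103-CD11b+ cells it was 4 of 13, beside 7850 of all 14003 genes. In CD103+CD11b- cells the macrophage marker sums were 2710 to 2840 untreated and 3210 to 3390 in DSS arrays, without overlap, although none of the 11 markers passed the test. The mean of Itgam there was 5.14 untreated and 6.13 in DSS arrays, and the part of either in these differences was not tested.

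**Figure D5:**
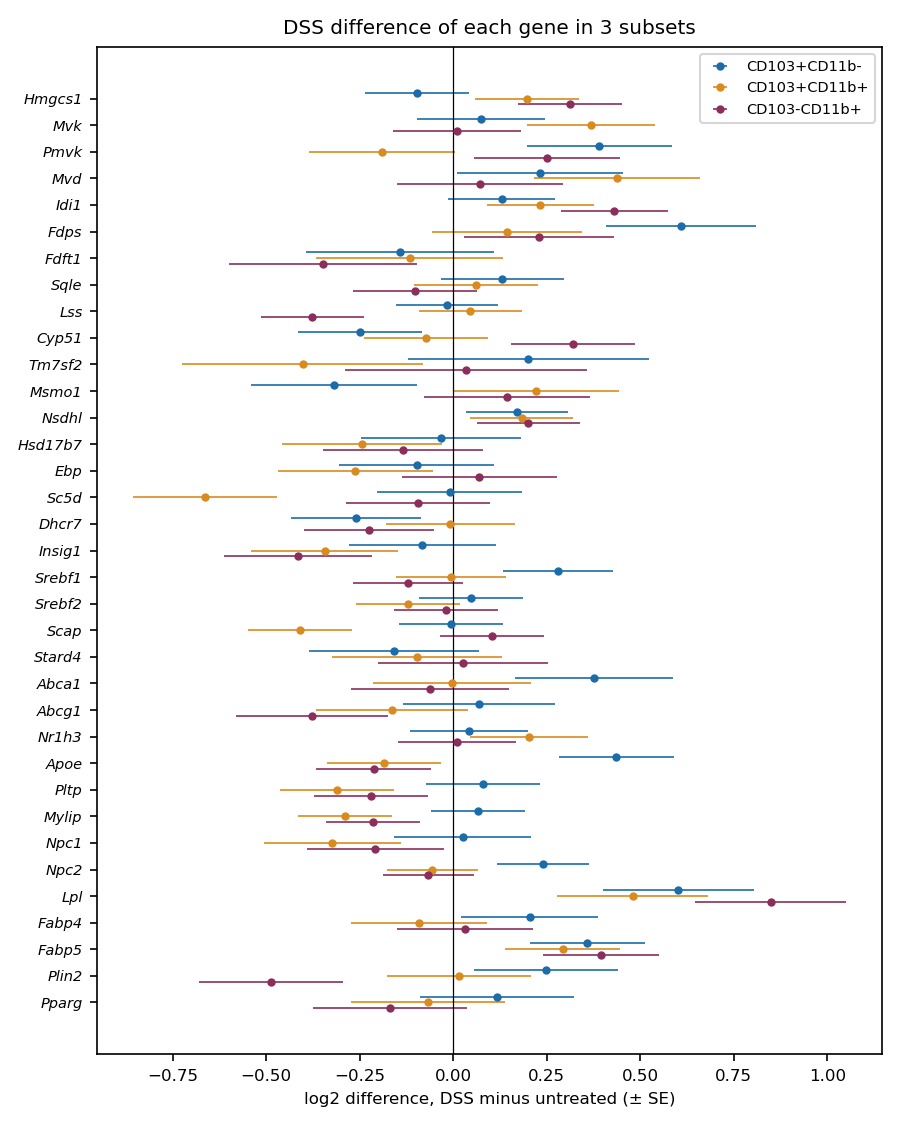
Each row is a gene and each point the log2 difference of DSS minus untreated arrays in a subset, with bars for SE, on 3 arrays a group. Lpl lies right of 0 in all 3 subsets, at 0.48 to 0.85, and no gene passed the test.

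The difference between subsets in the DSS change was tested itself. None of the 35 genes was called between CD103+CD11b- and CD103-CD11b+ cells (0% of all genes tested higher, 0% lower), between CD103+CD11b- and CD103+CD11b+ cells (0% and 0%) or between CD103+CD11b+ and CD103-CD11b+ cells (0% and 0%). At an unadjusted limma p under 0.05 there were 3, 3 and 2 genes, beside 3.64%, 4.83% and 5.56% of all genes. The lowest p belonged to Apoe in the first pair, with a change of 0.44 ± 0.15 in CD103+CD11b- cells and -0.21 in CD103-CD11b+ cells (difference 0.65 ± 0.22, adjusted p = 1). Scap had the lowest in the last pair (-0.51 ± 0.20, adjusted p = 0.869).

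Other lipid genes were read from a list of 58, of which 51 were tested. In untreated mice 9 were lower and 3 higher in the CD103+CD11b- subset relative to CD103-CD11b+ cells. Relative to CD103+CD11b+ cells, 8 were lower, Idi2 included, and 4 higher. In CD103+CD11b+ relative to CD103-CD11b+ cells, 2 were lower and 2 higher, Idi2 included again. Because Idi2 passed the filter only through CD103+CD11b+ arrays, its calls are counted but not read as a result. Over all genes tested the lower and higher shares were 5.32% and 5.01%, 4.09% and 2.76%, and 1.75% and 2.36%, so the 3 higher genes of the first comparison are near the background. Msr1, a scavenger receptor for modified lipoproteins, had the largest difference between the outer groups (-2.8 ± 0.25, adjusted p = 1.79e-07), ahead of Nceh1, a cholesteryl ester hydrolase (-1.58 ± 0.17, adjusted p = 1.93e-06), and Hilpda, a lipid droplet protein that restrains lipolysis (-1.50 ± 0.18, adjusted p = 6.53e-06). Of 5 lipid uptake receptors tested, 3 were lower and 1 higher between these groups, and of 11 genes of ester hydrolysis, lipid droplets and lipolysis 4 were lower and 1 higher. None of 15 genes of fatty acid synthesis and activation was called there.

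The same list in DSS cells gave 8 lower and 3 higher genes between CD103+CD11b- and CD103-CD11b+ cells, 3 lower and 4 higher between the CD103+ subsets, and 2 lower and 0 higher in CD103+CD11b+ relative to CD103-CD11b+ cells. The shares over all genes were 4.34% and 4.19%, 2.39% and 3.56%, and 1.14% and 0.436%, so the 3 higher genes of the first comparison are again near the background. Msr1 (-1.93 ± 0.25, adjusted p = 2.16e-05), Hilpda (-1.45 ± 0.18, adjusted p = 1.3e-05) and Olr1, a receptor for oxidised lipoprotein (-1.42 ± 0.39, adjusted p = 0.0262), led the first comparison. Between the CD103+ subsets, Hilpda (-1.46 ± 0.18, adjusted p = 1.99e-05) and Gpr183, a receptor for oxysterols (-1.10 ± 0.12, adjusted p = 6.29e-06), were lower in CD103+CD11b- cells, and Cyp27a1, which makes an oxysterol that activates LXR, was higher (0.95 ± 0.18, adjusted p = 0.00217). The 2 lower genes of CD103+CD11b+ cells were Nceh1 (-1.14 ± 0.17, adjusted p = 0.00101) and Msr1 (-1.10 ± 0.25, adjusted p = 0.028). Between DSS and untreated cells none of the 51 was called in a subset, beside 0.0214% to 0.107% of all genes in either direction. Over all subsets Acsl4, which activates long-chain fatty acids, was higher (0.56 ± 0.09, adjusted p = 0.0491), beside 0.15% of all genes. That call rests on 6 experiment means and lies just under the threshold. Leaving out 1 experiment gave 7 to 31 called genes in place of 26, and whether Acsl4 stayed among them was not analysed here.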

How the data were processed

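Gene expression was measured on 18 Affymetrix arrays. The deposited values are log2 expression for each probe set. They came from RMA, which corrects background, normalizes by quantiles and summarizes probes, per the submitters' processing notes; its version is not given in the sources used here. Per the labels' protocols, cells were freed with collagenase and RNA was amplified before labelling.

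Array medians lay between 3.99 and 4.09. Of 34760 probe sets, 21640 had 1 gene symbol, 1321 several and 11799 none, and 21553 matched the reference by gene identifier. Probe sets with 1 gene symbol were kept if above the 40th percentile of all values (3.51) in at least 3 arrays, and the probe set with the highest mean stood for a gene. The filter level is a percentile, not a measured background, and the number of arrays limits precision: the median standard error of a difference between 2 groups was 0.166. All 18 arrays entered a linear model in limma 3.58.1 (R 4.3.3), with a mean per group and empirical Bayes, two-sided, with Benjamini-Hochberg adjustment over the 14003 genes and a threshold of 0.05. The 13 comparisons were 3 pairs of subsets in each condition, DSS against untreated in each subset, the 3 interactions, and DSS against untreated on the 6 experiment means. The procedure was run on simulated data with independent arrays, which lack the correlation within an experiment given below.

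The experiment number in the titles marks arrays of a shared experiment and so pairs subsets within a condition: residuals of arrays that share a number correlated with a median of 0.25 in untreated and 0.18 in DSS arrays, against -0.12 and -0.13 for other pairs. The replicate block, the filter, the probe set rule, the normalization, the samples in the fit, the variance model and each array were varied. The choice of the second probe sets of Idi1, Fabp5 and Fdft1 was made after seeing the data. Probe set numbers of the listed genes grouped by chromosome, except those of the sets used for Idi1 and Fabp5. Which locus these sets read was not tested. The genes, lists and tests were chosen with earlier results of these data known. Genes named are the 37 listed, the 3 sort genes, and of the other lipid genes the 3 called genes with the largest absolute difference in a comparison. Marker sums are sums of 2 to the power of the log2 values.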

Additional observations from a re-analysis of the deposited data

How the results depend on the processing

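Over 13 comparisons there were 48 calls of the listed genes. Of these, 30 held under every alternative and 34 under every alternative except leaving out arrays, and 0 changed direction. With the experiment number as a replicate block, 0 calls were lost, and Npc1 (-0.555, adjusted p = 0.0341) and Sc5d (-0.53) between the untreated CD103+ subsets, Fabp5 (-0.521) between untreated CD11b+ subsets, Abcg1 (-0.632) between the outer DSS subsets and Lpl (-0.688) between the DSS CD11b+ subsets were gained. Leaving out arrays gave 5 to 8 called genes between the untreated CD103+ subsets (8 with all arrays), and 0 to 1 for DSS against untreated in CD103-CD11b+ cells (0 with all arrays). Fitting only the groups compared gave 4 in place of 7 between the untreated CD11b+ subsets, on fewer residual arrays.

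Over all genes, counts moved by more than 1.5 times as follows. Fitting only the groups compared gave 150 in place of 575 genes between the untreated CD11b+ subsets, and for DSS against untreated 0 in place of 12 in CD103+CD11b+ and 3 in place of 14 in CD103-CD11b+ cells. An intensity trend with robust estimation gave 24 in place of 14 in CD103-CD11b+ cells, 51 in place of 26 over all subsets and 2 in place of 0 for the difference in DSS change between the CD103+ subsets, and no filter gave 16 in place of 26 over all subsets. Leaving out arrays gave 315 to 571 between the untreated and 97 to 203 between the DSS CD11b+ subsets, 5 to 12, 5 to 20 and 5 to 29 for DSS in the 3 subsets, 7 to 31 over all subsets, and 0 to 1 for each difference in DSS change. The cause of these shifts was not tested. Detection calls and other background corrections were not analysed here.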
